A study of Mus musculus with 8 samples.

Results

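Oxidative phosphorylation genes were followed at the transcript level in testis of adult mice, in 4 Ssty2 knockout and 4 wild-type RNA sequencing libraries. The members were the rows of a table of raw counts per gene whose symbol begins with the names of the mitochondrial protein genes (mt-Nd, mt-Co, mt-Atp, mt-Cytb), of complex I (Ndufa, Ndufb, Ndufc, Ndufs, Ndufv), of complex III (Uqcr), of complex IV (Cox4 to Cox8) or of complex V (Atp5), and the complex II genes Sdha, Sdhb, Sdhc and Sdhd. Of 120 rows with such a symbol, 9 with a pseudogene ending in their name and 3 with fewer than 20 counts over the 8 libraries were left out. This left 108 of the 56748 rows, 13 of them encoded in mitochondrial DNA and 95 in the nucleus. Just above the minimum count were Ndufs6b with 36 and mt-Atp8 with 40 counts, and just below it Cox6c2 with 19 counts and Cox8b with 1.

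The knockout libraries carry the genotype Ssty2-/- and the wild-type libraries the genotype WT; both come from adult testis, and no treatment, strain, exact age or method of deletion is given. Ssty2 is a multicopy gene of the long arm of the Y chromosome that is transcribed in spermatids. Its row was at 0 counts in each of the 4 knockout libraries, against 56, 78, 83 and 45 counts in the wild-type libraries. The groups differ in more Y-linked transcripts than this one, since 119 of 191 Y-linked rows with at least 20 counts had no count in any knockout library. Depth ran from 18036708 to 22639737 counts in knockout and from 18763650 to 24415587 in wild type. The labels do not say that libraries come from separate animals, so p-values here reflect the spread between libraries alone, and that spread may be technical. Markers of the germ cells and of the somatic cells of testis, listed further on, were all above 0 in these libraries.

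Oxidative phosphorylation passes electrons from NADH (complex I) and succinate (complex II) through complex III and cytochrome c to oxygen (complex IV), and complex V uses the proton gradient this builds to make ATP. Mitochondrial DNA encodes a small number of core subunits of complexes I, III, IV and V, and every other subunit is a nuclear gene product imported into the organelle. Testis is known for subunit isoforms that germ cells make in place of the widely expressed form, among them Cox6b2, Cox7b2 and Cox8c of complex IV and the cytochrome c Cyct. Germ cells before meiosis and the somatic Sertoli and Leydig cells use mainly the widely expressed forms.

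Values are CPM, that is counts scaled to a common library total, after adjustment between libraries with the TMM method (a trimmed mean of M-values), and a fold change is the log2 of knockout over wild type. A gene was called where edgeR's quasi-likelihood test gave a Benjamini-Hochberg adjusted p under 0.05 over all 21952 tested genes. By that rule 53.5% of all tested genes were called, 26.2% higher and 27.4% lower in knockout, with a median log2 fold change of -0.01. Of the 104 members with enough counts to be tested, 7 were higher, 47 were lower and 50 were not called. Called members were thus mostly lower, and their median log2 fold change was -0.18, with a range from -0.95 to 1.06. The 4 knockout libraries did not overlap with the 4 wild-type libraries in 38 members, 3 of them higher and 35 lower, and in 46.7% of all tested genes. The 4 untested members were mt-Atp8, Ndufb4c, Ndufs6b and Cox6a2. Counts were also taken by genome, and the difference between the genomes was not tested. Of 12 mitochondrially encoded members tested, 10 were lower and none higher (median -0.58, range -0.83 to -0.41), and of 92 nuclear members tested, 7 were higher and 37 lower (median -0.15). At an unadjusted p under 0.05 in edgeR, and at an adjusted p in DESeq2, the count of higher mitochondrially encoded genes was also 0.

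**Figure D1:**
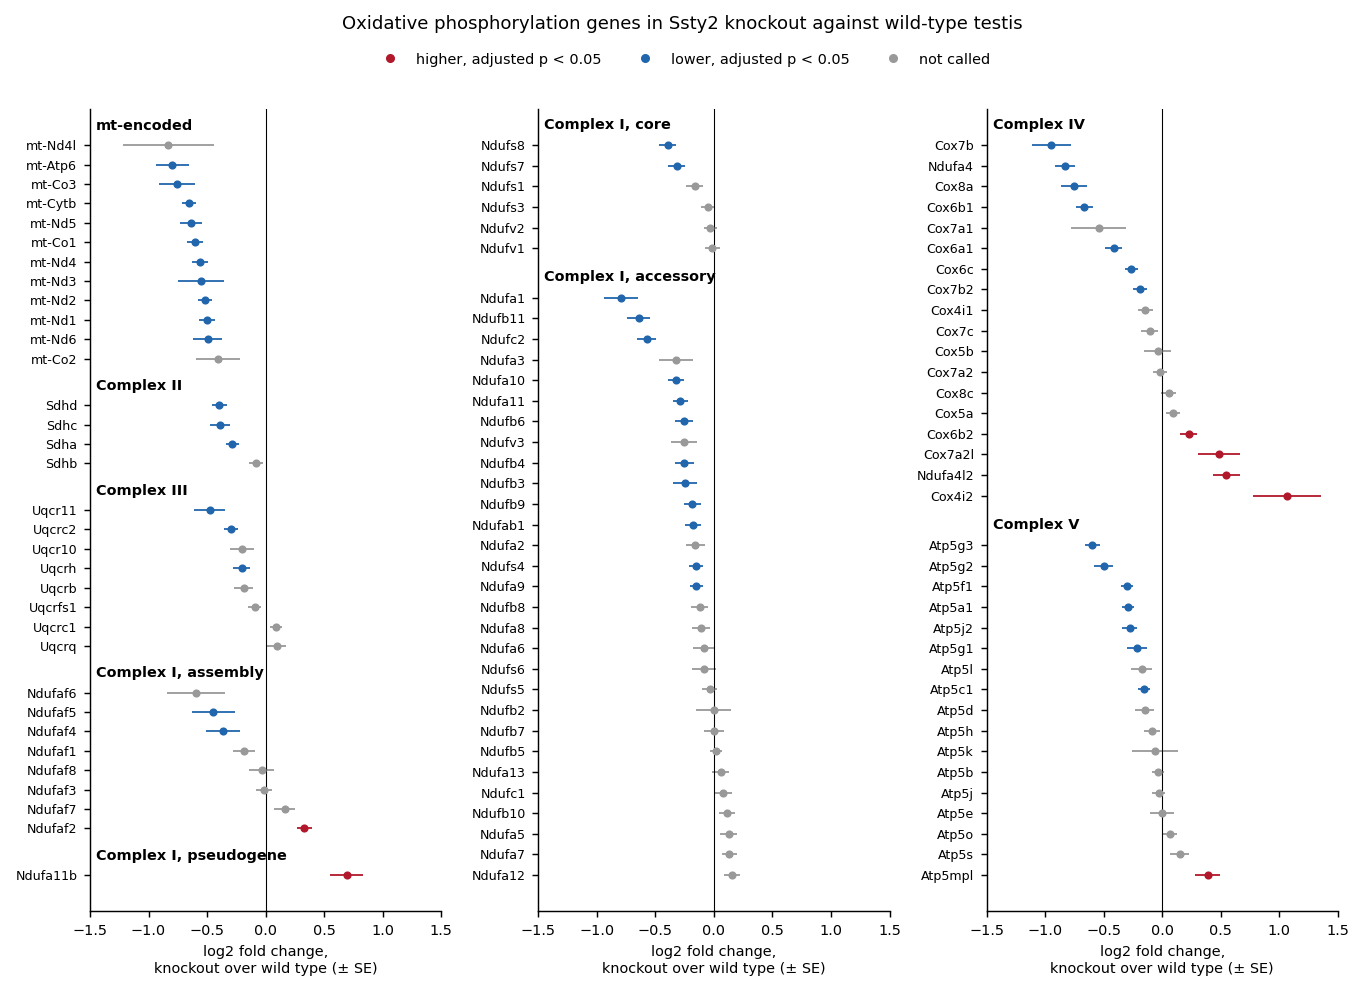
Log2 fold change of knockout over wild type (horizontal axis, points with bars of 1 standard error, SE) for 103 of the tested members, grouped by genome and complex and sorted within each group. Red points are higher, blue points lower and grey points not called; the mitochondrially encoded points lie between -0.83 and -0.41, and complex IV spans from -0.95 for Cox7b to 1.06 for Cox4i2.

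Mitochondrially encoded transcripts were lower in knockout in every well-counted gene. mt-Co1, the catalytic subunit of complex IV, had 3600, 4131, 3917 and 3946 CPM in the knockout libraries, against 5225, 6668, 6258 and 5545 CPM in the wild-type libraries. Every knockout library lay below every wild-type library, with a log2 fold change of -0.60 (SE 0.07, edgeR adjusted p = 3.03e-06). mt-Cytb, the cytochrome b of complex III, had 855, 895, 904 and 967 CPM in knockout, against 1342, 1569, 1453 and 1327 CPM in wild type. The groups did not overlap for mt-Cytb either, and its log2 fold change was -0.65 (SE 0.06, edgeR adjusted p = 2.80e-07). Among the complex I subunits, mt-Nd1 had 863, 1032, 965 and 1006 CPM in knockout, against 1189, 1483, 1440 and 1350 CPM in wild type, a change of -0.50 without overlap. mt-Nd2, mt-Nd4 and mt-Nd5, which belong to the proton-pumping membrane arm, changed by -0.52, -0.56 and -0.64, also without overlap. mt-Nd6 is the protein gene on the other strand of the mitochondrial DNA. It had 149, 206, 216 and 214 CPM in knockout, against 203, 317, 307 and 279 CPM in wild type. Its log2 fold change was -0.49 (edgeR adjusted p = 0.00297), and the wild-type library at 203 CPM lay among the knockout libraries. These 7 genes, each above 100 CPM in wild type and with 40357 to 837120 counts over the 8 libraries, spanned only -0.65 to -0.49.

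The other mitochondrially encoded genes carry little information in this table. mt-Co2, mt-Co3, mt-Atp6, mt-Nd3 and mt-Nd4l had 97 to 1117 counts over the 8 libraries, and at least 98% of their 31-base words occur in another annotated gene, mostly copies of mitochondrial DNA on chromosome 1. Sharing was not limited to them: of the well-counted genes, mt-Co1 shares 63.9% and mt-Nd4 62.8% of its words with other genes. mt-Co3 was lower at 6.43, 4.54, 4.87 and 3.72 CPM in knockout, against 8.32, 8.47, 7.23 and 9.17 CPM in wild type (log2 fold change -0.76, edgeR adjusted p = 0.00054). mt-Atp6, the membrane subunit of complex V that carries protons, was lower by the same test (-0.80, edgeR adjusted p = 0.000189), as was mt-Nd3 with overlapping groups (-0.55, edgeR adjusted p = 0.0251, a call lost under 5 of 13 alternatives, each leaving out 1 library). mt-Co2 at -0.41 and mt-Nd4l at -0.83 were not called, with edgeR adjusted p = 0.0802 and 0.081. mt-Co2 was called lower under 5 of 13 alternatives, with -0.62 (edgeR adjusted p = 0.00623) without knockout replicate 1. mt-Nd4l was called lower under 2 of 13 alternatives, at -0.97 with library totals (edgeR adjusted p = 0.042) and -1.05 without wild-type replicate 2 (edgeR adjusted p = 0.0355). The handling of multi-mapping reads is not given in the sources used here, so the levels of these genes against mt-Co1 are uncertain. The chromosome 1 copy of mt-Co3, Gm28437, summed to 331 counts over the knockout libraries and 546 over the wild-type libraries (log2 fold change -0.55). That of mt-Atp6, Gm10925, summed to 344 counts in knockout and 606 in wild type (-0.63). Both copies were called lower. However, mt-Co3 shares 99.9% of its words with Gm28437, and mt-Atp6 shares 99.5% with Gm10925, so the same sign is not separate support. The chromosome 1 copy of mt-Co2, Gm28661, was not called (-0.26, edgeR adjusted p = 0.155).

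**Figure D2:**
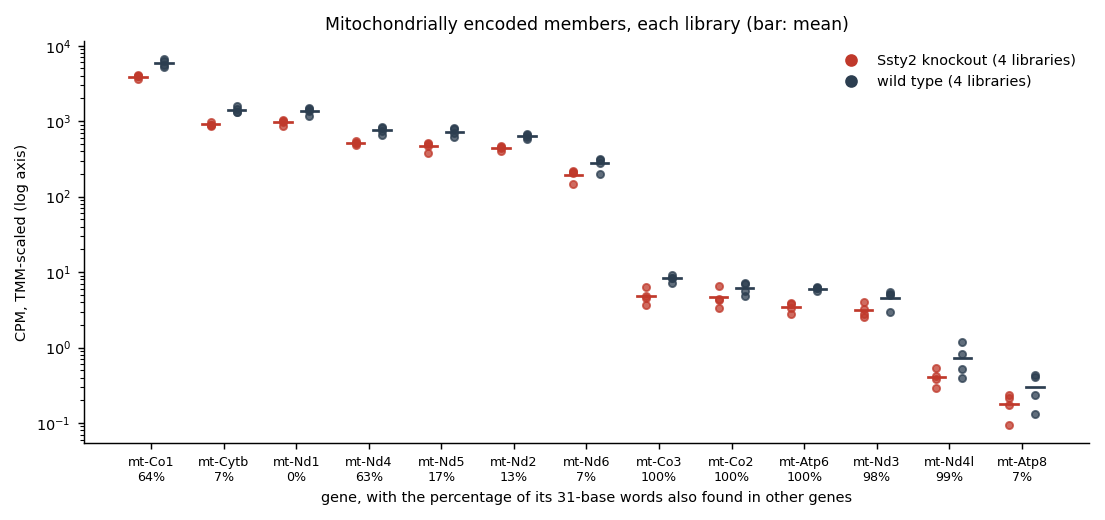
CPM on a log axis for each mitochondrially encoded member, with 1 point per library, knockout in red to the left of wild type in dark blue, and a bar at the group mean. Under each symbol stands the percentage of its 31-base words found in another gene; the 7 genes above 100 CPM in wild type stand apart from the 6 others, which lie near or under 10 CPM.

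The share of all counts from the mitochondrial genome, ribosomal and transfer RNA genes included, was 0.727% ± 0.0447 in knockout (SD, n = 4) and 1.20% ± 0.133 in wild type. It ranged from 0.661% to 0.755% in knockout and from 1.04% to 1.35% in wild type (two-sided exact permutation p = 0.0286, the smallest that 4 against 4 allows). Within that share the makeup differed little. mt-Co1 gave 52.6% ± 0.911 of the mitochondrial protein-gene counts in knockout and 53.2% ± 0.657 in wild type. mt-Nd1 gave 13.0% ± 0.256 in knockout and 12.3% ± 0.336 in wild type. Its groups did not overlap, at 12.78% to 13.35% in knockout and 12.01% to 12.76% in wild type. mt-Cytb gave 12.2% ± 0.516 in knockout and 12.8% ± 0.580 in wild type. The nuclear members together summed to 0.849 to 1.05 times the mitochondrially encoded ones in the knockout libraries, and to 0.565 to 0.771 times in the wild-type libraries, on the CPM scale.

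Markers of cell types also differed between the groups, some lists lower and others higher in knockout. The summed CPM of mitochondrially encoded members in the knockout libraries was 60.6% to 69.4% of the wild-type mean, and that of nuclear members 90.8% to 98.9%. In the same libraries the sum of 11 Leydig cell markers was 47.9% to 53.1% of the wild-type mean, with 11 of 11 called lower, and that of 12 Sertoli cell markers 62.8% to 70.9%, with 12 of 12 called lower. Of 7 peritubular myoid markers 6 were lower, of 8 macrophage markers 6, and of 6 endothelial markers 3. Of 9 spermatogonial markers 7 were lower and 1 higher, with a sum of 60.7% to 63.9%, and of 10 spermatocyte markers 5 were lower, with a sum of 79.4% to 91.2%. All 10 round spermatid markers were higher, with a sum of 143% to 147%, as were all 10 elongating spermatid markers, with a sum of 143% to 163%. No marker in any of the 9 lists was at 0. The part of cell makeup in the changes of the members was not tested. In bulk tissue, fewer cells of a type and less RNA per cell cannot be told apart.

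**Figure D3:**
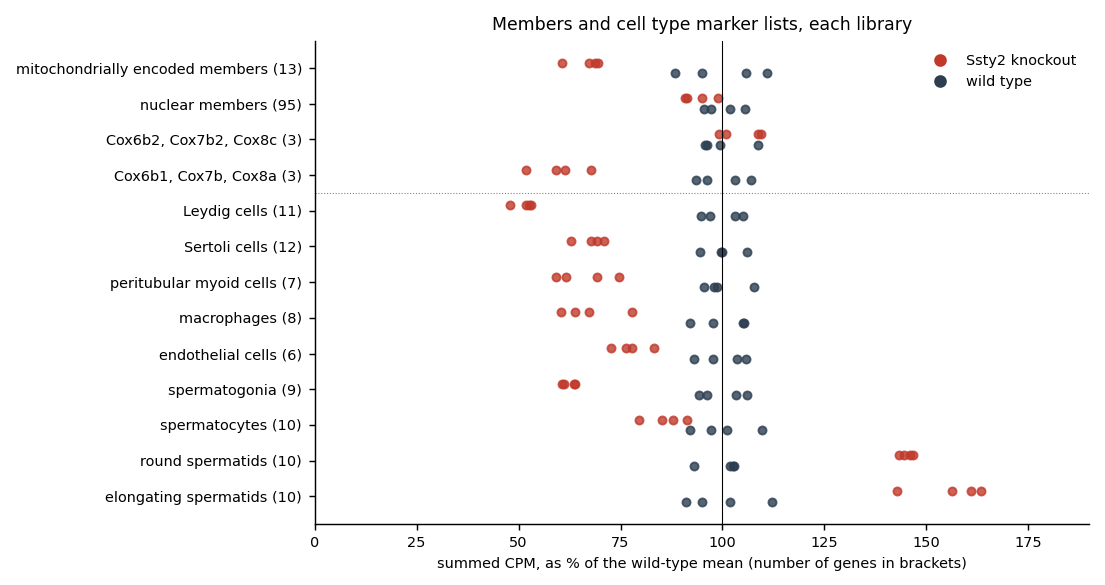
Summed CPM as a percentage of the wild-type mean (horizontal axis) for sets of members, above the dotted line, and for cell type marker lists, below it. Each point is a library, knockout in red above wild type in dark blue; the mitochondrially encoded members and the somatic lists lie left of 100% in every knockout library and the spermatid lists right of it.

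The testis isoforms of complex IV and the widely expressed genes they replace changed differently, and they show the contrast within 1 complex. Cox6b2, the testis form of an intermembrane-space subunit, had 234, 193, 213 and 224 CPM in knockout, against 205, 174, 169 and 191 CPM in wild type. The groups overlapped, and the log2 fold change was 0.22 (SE 0.07, edgeR adjusted p = 0.0123). This call was lost with library totals in place of TMM (0.08, edgeR adjusted p = 0.307) and without wild-type replicate 3 (edgeR adjusted p = 0.0563), and the adjusted p ran from 0.00111 to 0.307 over 13 alternatives. Its widely expressed partner Cox6b1 had 17.2, 16.1, 17.2 and 16.4 CPM in knockout, against 26.4, 24.7, 27.2 and 27.9 CPM in wild type. All 4 knockout libraries of Cox6b1 lay below all 4 wild-type libraries, with a log2 fold change of -0.67 (SE 0.08, edgeR adjusted p = 2.48e-06). Cox7b2, the testis form of a small membrane subunit, had 102, 112, 100 and 115 CPM in knockout, against 120, 124, 122 and 124 CPM in wild type (log2 fold change -0.19, edgeR adjusted p = 0.00997). The X-linked Cox7b, its partner, had 4.13, 2.90, 4.01 and 4.30 CPM in knockout, against 9.30, 6.07, 6.69 and 7.54 CPM in wild type. Cox7b fell by 0.95 on the log2 scale, the lowest value among the 104 tested members (edgeR adjusted p = 0.000145). Cox8c, the testis form of the smallest membrane subunit, had 299, 283, 264 and 300 CPM in knockout, against 309, 264, 267 and 265 CPM in wild type (0.05, edgeR adjusted p = 0.482). Its partner Cox8a had 19.5, 12.2, 15.8 and 14.9 CPM in knockout, against 28.9, 25.6, 24.0 and 26.8 CPM in wild type, without overlap (-0.75, edgeR adjusted p = 4.12e-05).

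The partners of each pair moved by different amounts, and a link to promoter sequence was not tested. Cox8c had no window among the RefSeq promoters by symbol, so the start regions of the first 2 pairs are shown. Each is the RefSeq window from 250 bases before to 50 bases after the transcript start in build GRCm38.p6, 5′ to 3′ on the gene's strand. Capitals mark every match, on either strand, to CCAAT, the box bound by NF-Y, and to CCGGAAG, a core bound by ETS factors such as GABPA; no matches overlapped. The windows lie at chr7:4753045-4753344 on the minus strand for Cox6b2, at chr7:30626065-30626364 on the minus strand for Cox6b1, at chr5:71548156-71548455 on the minus strand for Cox7b2 and at chrX:106015450-106015749 on the plus strand for Cox7b.
Cox6b2: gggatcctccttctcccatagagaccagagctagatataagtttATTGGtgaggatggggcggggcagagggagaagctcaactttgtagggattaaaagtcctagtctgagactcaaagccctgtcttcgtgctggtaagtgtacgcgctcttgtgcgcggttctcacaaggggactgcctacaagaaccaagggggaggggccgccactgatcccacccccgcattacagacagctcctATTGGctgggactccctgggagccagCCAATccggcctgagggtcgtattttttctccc
Cox6b1: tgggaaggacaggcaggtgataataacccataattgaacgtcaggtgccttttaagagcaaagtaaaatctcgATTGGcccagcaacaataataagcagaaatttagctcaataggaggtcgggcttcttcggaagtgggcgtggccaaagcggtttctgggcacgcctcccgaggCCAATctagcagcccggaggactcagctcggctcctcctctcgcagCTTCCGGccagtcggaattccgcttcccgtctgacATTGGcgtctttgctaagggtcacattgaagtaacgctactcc
Cox7b2: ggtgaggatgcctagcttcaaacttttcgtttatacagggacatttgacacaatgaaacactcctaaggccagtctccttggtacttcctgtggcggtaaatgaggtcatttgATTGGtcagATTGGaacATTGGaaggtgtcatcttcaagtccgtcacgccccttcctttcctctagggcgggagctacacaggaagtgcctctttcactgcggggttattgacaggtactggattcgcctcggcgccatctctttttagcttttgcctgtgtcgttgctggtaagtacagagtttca
Cox7b: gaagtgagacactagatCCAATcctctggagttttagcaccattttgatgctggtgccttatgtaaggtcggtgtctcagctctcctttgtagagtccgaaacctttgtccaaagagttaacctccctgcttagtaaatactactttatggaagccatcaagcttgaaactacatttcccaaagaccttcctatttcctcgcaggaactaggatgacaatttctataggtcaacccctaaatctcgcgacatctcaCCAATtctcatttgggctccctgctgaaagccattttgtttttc
The Cox6b2 and Cox7b2 windows each held 3 matches to CCAAT, all 3 written as ATTGG, on the opposite strand, in Cox7b2, and 2 as ATTGG and 1 as CCAAT in Cox6b2. The Cox6b1 window held 3 matches to CCAAT and 1 to CCGGAAG, and the Cox7b window 2 matches to CCAAT. Over all 32851 mouse promoters of the table, 37.4% held CCAAT and 8.86% held CCGGAAG.

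Set per library, the ratio of each isoform to its partner does not depend on how libraries were scaled. The log2 ratio of Cox6b2 to Cox6b1 was 3.76, 3.58, 3.63 and 3.77 in knockout, against 2.95, 2.82, 2.64 and 2.78 in wild type, a difference of 0.89. The ratio of Cox7b2 to Cox7b was 4.62, 5.27, 4.65 and 4.74 in knockout, against 3.69, 4.35, 4.19 and 4.04 in wild type, a difference of 0.75. The ratio of Cox8c to Cox8a was 3.94, 4.53, 4.06 and 4.33 in knockout, against 3.42, 3.36, 3.47 and 3.30 in wild type, a difference of 0.83. In all 3 pairs every knockout library had a higher ratio than every wild-type library. Of 9 pairs examined, 8 reached the smallest exact permutation p that 4 against 4 allows (p = 0.0286, Benjamini-Hochberg adjusted 0.0321 over the 9 pairs). Among single tested genes the groups did not overlap in 46.7%, and the share among other pairs of genes was not counted. Per transcript length, Cox6b2 made up 89.2% ± 0.635 of the pair in knockout and 81.6% ± 1.36 in wild type. Cox7b2 made up 98.4% ± 0.296 in knockout and 97.4% ± 0.524 in wild type, and Cox8c 96.1% ± 0.675 in knockout and 93.4% ± 0.315 in wild type (SD, n = 4). The 3 testis isoforms summed to 610 ± 31.3 CPM in knockout and 583 ± 34.7 CPM in wild type, and their 3 partners to 36.2 ± 3.98 CPM in knockout and 60.3 ± 3.77 CPM in wild type. The rise in each ratio thus lay mainly in the lower level of the widely expressed partner.

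Pairs around the complexes, taken from other lists, moved the same way. Cyct, the testis cytochrome c, had 56.0, 52.5, 52.7 and 61.4 CPM in knockout, against 60.1, 58.9, 55.9 and 61.7 CPM in wild type, and was not called (-0.09). Cycs, the somatic cytochrome c, had 27.5, 25.0, 26.6 and 29.2 CPM in knockout, against 48.6, 51.4, 44.0 and 47.9 CPM in wild type (-0.83, edgeR adjusted p = 1.99e-07). Their log2 ratio was higher in knockout by 0.73. Pdha2, the retroposed testis form of the pyruvate dehydrogenase E1 alpha subunit, changed by 0.06 (edgeR adjusted p = 0.287) and the X-linked Pdha1 by -0.81, and their ratio was higher in knockout by 0.88. Slc25a31, the germ cell ADP/ATP carrier, was itself lower, at 63.8, 76.1, 63.0 and 70.4 CPM in knockout, against 82.1, 102, 93.2 and 90.6 CPM in wild type (-0.43). Slc25a5, its widely expressed partner, fell further (-0.89), so that the ratio was higher in knockout by 0.46. In all 3 of these pairs the ratios of the groups did not overlap.

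Isoforms of other tissues gave mixed results. Ndufa4l2, known from the response to hypoxia, had 24.8, 22.3, 32.3 and 29.2 CPM in knockout, against 21.4, 16.4, 16.9 and 19.7 CPM in wild type (0.55, edgeR adjusted p = 0.000778). Ndufa4, first named as a complex I protein and now placed in complex IV, had 10.9, 12.1, 11.8 and 11.7 CPM in knockout, against 19.7, 20.1, 19.5 and 23.4 CPM in wild type (-0.83, edgeR adjusted p = 1.48e-06). Neither gene had overlapping groups, and their log2 ratio averaged 1.21 in knockout and -0.16 in wild type, a difference of 1.37. Cox4i2, known from lung, had the highest fold change of the members at a low level, with 1.72, 1.55, 1.79 and 1.16 CPM in knockout, against 1.18, 0.524, 0.816 and 0.480 CPM in wild type (1.06, SE 0.29, edgeR adjusted p = 0.00557). Its ratio to Cox4i1, which was not called (-0.14), was higher in knockout by 1.27, without overlap. Cox7a1, the heart and muscle form, was not called (-0.54, edgeR adjusted p = 0.0641), and its ratio to Cox7a2 overlapped between groups (difference -0.54, exact permutation p = 0.0857). Cox6a2, the muscle form paired with Cox6a1, had 59 counts in all and was not tested.

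**Figure D4:**
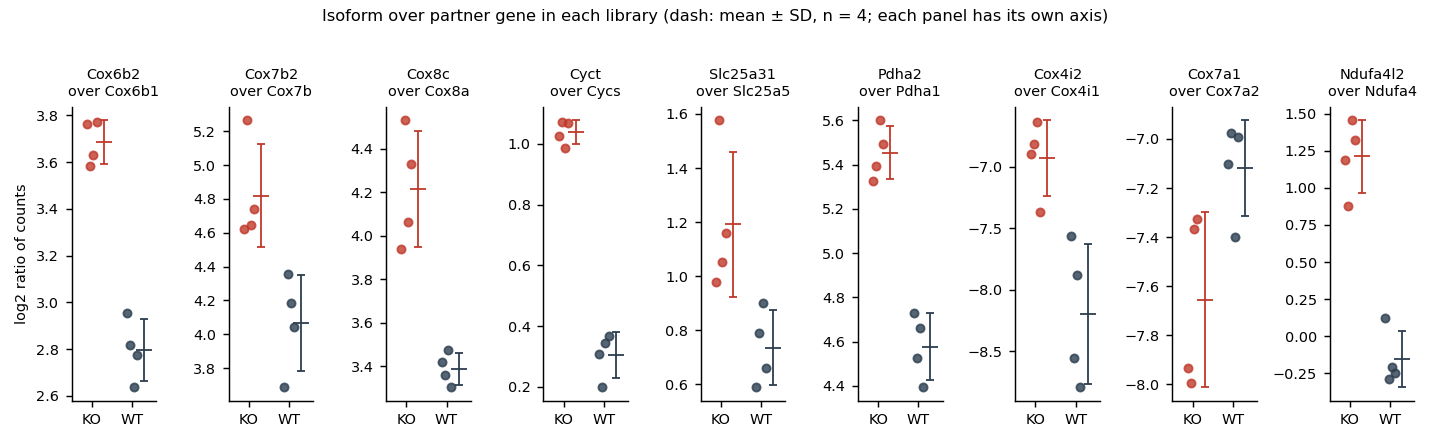
Log2 ratio of an isoform to its partner gene in each library, with 1 panel per pair and its own axis, knockout in red to the left of wild type in dark blue, and the mean ± SD of the 4 libraries. The groups do not overlap in 8 of the 9 panels, with knockout higher; in Cox7a1 over Cox7a2 they overlap.

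Complex IV as a whole had 4 of its 18 tested nuclear members higher and 7 lower (median -0.13), with 2 higher without wild-type replicate 3. Its 11 widely expressed subunits held 6 of the lower calls and no higher one (median -0.26), and 0 were higher at an unadjusted p in edgeR or with DESeq2. Besides Cox7b, Ndufa4, Cox8a and Cox6b1, these were Cox6a1, at 96.8, 77.4, 85.1 and 95.6 CPM in knockout, against 129, 112, 110 and 122 CPM in wild type (-0.42), and Cox6c (-0.26). Cox4i1, Cox5a, Cox5b, Cox7a2 and Cox7c were not called and lay between -0.14 and 0.09. Cox7a2l, a factor that joins complexes III and IV into supercomplexes, was called higher (0.49, edgeR adjusted p = 0.0307). Its libraries spread widely, from 47.8 to 78.7 CPM in knockout and from 32.7 to 58.1 CPM in wild type, and the call was lost under 6 of 13 alternatives.

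Complex I had 45 nuclear members tested, with 2 higher and 17 lower (median -0.15). Among the 7 nuclear core subunits, which carry the flavin and the iron-sulfur clusters, 3 were lower. Ndufs8 had 28.2, 29.4, 25.8 and 23.7 CPM in knockout, against 36.8, 34.7, 35.1 and 34.4 CPM in wild type (-0.40, edgeR adjusted p = 0.000382). Ndufs7 (-0.32), which like Ndufs8 lies on the path of electrons to ubiquinone, was also lower without overlap. Ndufv2, on the path from NADH, was not called (-0.03) and had 201, 204, 190 and 212 CPM in knockout, against 192, 208, 210 and 215 CPM in wild type. The core subunits of the matrix arm therefore did not all pass the test.

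Of the 29 accessory subunits of complex I, 12 were lower and none higher in edgeR (median -0.15), with 1 higher at an unadjusted p and 0 in DESeq2. Without wild-type replicate 4, 7 were lower, and without wild-type replicate 1, 2 were higher. The largest falls were in both X-linked members and in Ndufc2. Ndufa1, X-linked and needed for assembly of the membrane arm, had 12.7, 8.67, 8.88 and 10.3 CPM in knockout, against 23.0, 16.6, 14.5 and 16.1 CPM in wild type (-0.79, edgeR adjusted p = 0.00024). Ndufb11, also X-linked, had 10.4, 11.2, 8.83 and 11.7 CPM in knockout, against 16.8, 16.3, 16.4 and 16.3 CPM in wild type (-0.64, edgeR adjusted p = 4.68e-05). Of the words of Ndufb11, 29.0% are shared with Gm6444 or Rbm10. With Cox7b of complex IV, all 3 X-linked members were lower, and none of the 3 overlapped between groups. Among all tested genes 27.4% were lower, and in 46.7% the groups did not overlap. X-linked genes as a whole were not counted, so a link to the X chromosome was not tested. Ndufc2 had 23.0, 23.5, 21.0 and 25.0 CPM in knockout, against 30.9, 32.4, 37.1 and 37.1 CPM in wild type (-0.57, edgeR adjusted p = 2.76e-05). Ndufa10 (-0.32) and Ndufa11 (-0.29) were lower without overlap, and Ndufb6 (-0.26) likewise, though 34.4% of its words are shared with Smim27. Ndufb4 (-0.25), Ndufb3 (-0.25), Ndufb9 (-0.18), Ndufab1 (-0.18), Ndufs4 (-0.15) and Ndufa9 (-0.15) made up the rest of the 12. These 6 lay close to the threshold: Ndufb9, Ndufab1 and Ndufs4 each lost the call under 8 of 13 alternatives, Ndufa9 and Ndufb3 under 5, and Ndufb4 under 1. The highest value among the accessory subunits was 0.15, for Ndufa12, which was not called (edgeR adjusted p = 0.0724).

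The assembly factors of complex I went both ways. Ndufaf2, a factor of late assembly, had 42.4, 45.3, 44.0 and 48.2 CPM in knockout, against 33.9, 34.9, 36.0 and 38.1 CPM in wild type (0.33, edgeR adjusted p = 0.000598). Its groups did not overlap, but 65.1% of its words are also annotated to B230220B15Rik, so reads could have been shared. Ndufaf4 (-0.36) and Ndufaf5 (-0.45) were called lower with overlapping groups, and they lost the call under 6 and 8 of 13 alternatives. No assembly factor was called lower without knockout replicate 3, wild-type replicate 3 or wild-type replicate 4, and 2 were higher without wild-type replicate 1. Ndufaf3, the factor with the highest level per transcript length, had 248, 236, 231 and 218 CPM in knockout, against 270, 213, 228 and 230 CPM in wild type and was not called (-0.01). Of 3 processed pseudogenes that carry subunit names, only Ndufa11b could be tested. It had 6.16, 6.18, 7.42 and 5.58 CPM in knockout, against 4.11, 4.54, 3.27 and 3.84 CPM in wild type (0.69, edgeR adjusted p = 0.000796), and 26.7% of its words occur in Ndufa11, which was lower.

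Complex II, which is also an enzyme of the tricarboxylic acid cycle and has no mitochondrially encoded subunit, had 3 of 4 genes lower. Sdhd, a membrane anchor, had 46.8, 48.5, 44.4 and 47.6 CPM in knockout, against 58.0, 64.9, 60.1 and 63.1 CPM in wild type (-0.39, edgeR adjusted p = 6.33e-05). Sdhc, the other anchor, changed by -0.39 (edgeR adjusted p = 0.000984) and the flavoprotein Sdha by -0.29 (edgeR adjusted p = 0.00039), both without overlap. The iron-sulfur subunit Sdhb overlapped, at 81.7, 90.2, 81.4 and 75.7 CPM in knockout, against 84.5, 89.6, 86.4 and 88.1 CPM in wild type, and was not called (-0.08).

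Complex III had 3 of 8 nuclear genes lower and none higher (median -0.20; 5 lower without wild-type replicate 3), also with 0 higher at an unadjusted p in edgeR or with DESeq2. Uqcrc2, a core protein on the matrix side, had 89.1, 97.2, 88.7 and 85.3 CPM in knockout, against 100, 120, 110 and 113 CPM in wild type (-0.30, edgeR adjusted p = 0.00102). It was the only one of these 8 nuclear genes whose groups did not overlap. Uqcr11 (-0.48) and Uqcrh (-0.20), small subunits, were called lower with overlapping groups, and Uqcrh lost the call under 4 of 13 alternatives. Uqcrc1, the other core protein, overlapped, at 237, 223, 231 and 217 CPM in knockout, against 216, 204, 213 and 223 CPM in wild type, and was not called (0.09). The iron-sulfur protein Uqcrfs1 was not called either (-0.09). Beside these nuclear values, the mitochondrially encoded mt-Cytb of the same complex was at -0.65.

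Complex V had 1 of 17 nuclear members higher and 7 lower (median -0.15), with 2 higher without knockout replicate 1. All 3 genes for the c subunit, which encode the same mature protein of the rotating ring, were lower. Atp5g3 had 41.8, 37.1, 39.3 and 43.5 CPM in knockout, against 59.7, 62.0, 61.1 and 61.8 CPM in wild type (-0.60, SE 0.06, edgeR adjusted p = 1.48e-06). Atp5g2 had 17.0, 17.0, 16.9 and 19.8 CPM in knockout, against 24.8, 25.9, 22.9 and 26.3 CPM in wild type (-0.50, edgeR adjusted p = 1.00e-04), with 40.2% of its words shared with other genes. Atp5g1 was at -0.21 with overlapping groups (edgeR adjusted p = 0.0473), and this call was lost under 8 of 13 alternatives. In the catalytic head, the alpha subunit Atp5a1 had 253, 237, 250 and 244 CPM in knockout, against 304, 298, 288 and 316 CPM in wild type (-0.29, edgeR adjusted p = 0.00013). The beta subunit Atp5b, which alternates with alpha in the head, overlapped at 565, 517, 529 and 520 CPM in knockout, against 576, 540, 516 and 560 CPM in wild type, and was not called (-0.04). The gamma subunit Atp5c1 (-0.15, a call lost without knockout replicate 3 or 4), the stalk subunit Atp5f1 (-0.30) and the membrane subunit Atp5j2 (-0.28) were lower without overlap. Atp5mpl, a small protein bound to the membrane part, was higher (0.39, edgeR adjusted p = 0.00561) with overlapping groups, from 81.3 to 93.5 CPM in knockout and from 54.3 to 82.9 CPM in wild type, and lost the call with library totals (edgeR adjusted p = 0.0503).

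Sharing of sequence with other genes did not separate the calls completely. Of 33 tested nuclear members with under 1% of their words shared, 4 were higher (12.1%) and 10 lower (30.3%, median -0.08). Of 59 with at least 1% shared, 3 were higher (5.09%) and 27 lower (45.8%, median -0.17). Over all tested genes 26.2% were higher and 27.4% lower, and the difference between these 2 sets was not tested. Cox8a and Atp5g3, with none of their words shared, were among the lower ones.

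Promoter motifs of the members were counted as a description, without a test of enrichment. Of the 92 nuclear members that are not processed pseudogenes, 73 matched the RefSeq promoter table by symbol, with 78 windows. The core bound by NRF1, searched as GCGCA and GCGC with any 1 base between them, stood in 25.6% of them and in 4.6% of all 32851 promoters, both strands counted. CCGGAAG stood in 23.1% of member promoters and 8.86% of all, AAGATGGC, the core bound by YY1, in 12.8% and 2.75%, and TGACGTCA, the site bound by CREB, in 5.13% and 1.79%. CCAAT stood in 43.6% of member promoters and 37.4% of all. The median GC content was 58.0% in member promoters and 52.7% in all. In the 31 windows of genes called lower and the 44 windows of genes not called, the NRF1 core stood in 32.3% and 22.7%, CCGGAAG in 25.8% and 22.7%, and AAGATGGC in 12.9% and 13.6%. TGACGTCA stood in 6.45% of the windows of genes called lower and 4.55% of those not called, and CCAAT in 54.8% and 34.1%. A match is a description of letters in the window, not of binding.

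Genes that serve the complexes were taken from 9 lists. In the cytochrome c list of 4, 3 genes were lower: Cycs, Cyc1 (-0.44), which is the cytochrome c1 of complex III, and Hccs (-0.78), which attaches heme to cytochromes c. Of 33 tested assembly factors of complexes II to V, 2 were higher and 14 lower (median -0.25). Cox14, which handles newly made mt-Co1, was at 12.9 ± 1.65 CPM in knockout and 21.5 ± 0.317 CPM in wild type (-0.74), and Cox15, of heme a synthesis, at 8.90 ± 0.607 CPM in knockout and 14.0 ± 0.386 CPM in wild type (-0.65). Lyrm7, which helps mature Uqcrfs1, was higher (0.79), as was Atpaf2 (0.16), an assembly factor of the complex V head. Atpaf2 lost the call under 7 of 13 alternatives and was at 0.02 with library totals (edgeR adjusted p = 0.796). Of 7 tested complex I assembly factors outside the Ndufaf names, Ecsit (0.43) and Nubpl (0.43) were higher and Tmem126b (-0.72) and Acad9 (-0.44) lower.

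Of 19 genes of mitochondrial DNA maintenance and transcription, 2 were higher and 7 lower (median -0.13). Tfam, which packages mitochondrial DNA and starts its transcription, had 216, 251, 198 and 212 CPM in knockout, against 179, 162, 179 and 169 CPM in wild type (0.35, edgeR adjusted p = 0.000406). Tfb1m, which methylates mitochondrial ribosomal RNA, had 49.1, 37.8, 47.1 and 52.6 CPM in knockout, against 27.6, 29.7, 29.4 and 29.1 CPM in wild type (0.69, edgeR adjusted p = 8.86e-06). Neither overlapped, and both were higher in the libraries in which the mitochondrially encoded transcripts were lower, a relation that was not tested. Counts per gene do not tell the transcript forms of Tfam apart. Ssbp1, the single-strand binding protein, was lower (-0.56), as were the polymerase Polrmt (-0.29) and its partners Tfb2m (-0.35) and Tefm (-0.54). Of 8 nuclear regulators, Pprc1 (-0.56), Gabpa (-0.35), Esrra (-0.33) and Yy1 (-0.19) were lower and Ppargc1b was higher (0.63), a call lost with library totals (0.49, edgeR adjusted p = 0.0514).

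In the supply of electrons, 10 of 14 genes of the tricarboxylic acid cycle were lower, with the smallest p for Idh3g (-0.70), Mdh2 (-0.60) and Idh2 (-0.92). Sucla2 was higher (0.21), a call lost with library totals (0.07, edgeR adjusted p = 0.236). Of 5 pyruvate dehydrogenase genes, Pdha1 and Dlat (-0.15) were lower, and Dlat lost the call under 7 of 13 alternatives. Of 7 carriers and porins, Slc25a5, Slc25a4 (-0.74), Vdac1 (-0.77), Slc25a31 and Slc25a3 (-0.20) were lower and Vdac2 (0.17) and Vdac3 (0.16) higher. With library totals both higher calls were lost, at 0.03 for Vdac2 (edgeR adjusted p = 0.604) and 0.01 for Vdac3 (edgeR adjusted p = 0.803). A list of 19 genes held named examples of the mitochondrial ribosome, which translates the 13 mitochondrially encoded members, and not all of its subunits. Of these 19, 8 were lower and none higher in edgeR (median -0.20). Over all tested genes 26.2% were higher and 27.4% lower. At an unadjusted p in edgeR 2 of the 19 were higher, and in DESeq2 0. The smallest p belonged to Mrpl3 (-0.59), Mrps10 (-0.36) and Mrps16 (-0.47). Against the 27.4% of all tested genes called lower, the lower share was 45.2% among the 104 tested members, and the members were chosen by name, so no test of this difference is given. The summed somatic and spermatogonial markers were lower and the spermatid markers higher in the same libraries, and their part in these changes was not tested.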

How the data were processed

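Per the labels' protocols, TRIzol was used to extract total RNA, DNase treatment followed, and the libraries were prepared with a TruSeq RNA kit. The authors deposited raw counts per gene, whole numbers without normalization; the submitters' processing notes list mm39 as the build and, as tools, FastQC, STAR, featureCounts, Trimmomatic and DESeq2. The sources used here do not give strand, multi-mapping settings or annotation, so overlapping, antisense and near-identical genes cannot be told apart. No label or header gives a batch.

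Names, gene types, chromosomes, exon lengths and shared 31-base words came from GENCODE vM21 (GRCm38), with RefSeq symbols added; 52073 of 56748 rows had a symbol. The test was edgeR's quasi-likelihood test (edgeR 4.0.16, R 4.3.3) with genotype as the only term, after filterByExpr (minimum count 10, minimum total 15) and TMM scaling. Single values per library were compared by two-sided exact permutation tests. Alternatives were RLE scaling (relative log expression) in edgeR, library totals, no filter, the test of DESeq2 1.42.0, a replicate block and leaving out each library. The edgeR steps were tested on simulated data with 200 changed genes.

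The members and lists were chosen with earlier results of these data known. Genes named were every mitochondrially encoded gene, both genes of each isoform pair, up to 4 called genes each way per complex, the 8 largest changes each way, and up to 3 called genes per list; others were named because 5 or fewer went their way or after their values were seen. Values of 1 member are not reported here, although it is counted in the totals.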

Additional observations from a re-analysis of the deposited data

Results flagged for a closer look

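In 10 of 228 sets of 4 libraries examined among the members, 1 library stood apart from the other 3 by more than Dixon's 95% criterion, which sets the gap to the nearest library against the whole range. Chance flags about 1 in 20 such sets. In knockout replicate 1, mitochondrial DNA gave 0.661% of the counts, against 0.741% to 0.755% in the other knockout libraries, and mt-Nd6 was at 149 CPM, against 206 to 216 CPM. Both values lay away from wild type, and without that library the difference in the share was -0.45 percentage points in place of -0.48. The same library had Ndufv1, a core subunit of complex I, at 108 CPM, against 96.2 to 97.9 CPM. Knockout replicate 2 had Ndufb3 at 15.2 CPM, against 19.2 to 19.8 CPM, and knockout replicate 4 had Atp5g2 at 19.8 CPM, against 16.9 to 17.0 CPM.

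In wild-type replicate 1, Cox8c was at 309 CPM, against 264 to 267 CPM in the other wild-type libraries, and Ndufb11 at 16.8 CPM, against 16.3 to 16.4 CPM. In wild-type replicate 4, Ndufa4 was at 23.4 CPM, against 19.5 to 20.1 CPM, Uqcrfs1 at 113 CPM, against 107 to 108 CPM, and Ndufb8 at 70.2 CPM, against 60.4 to 60.5 CPM.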

How the results depend on the processing

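Over 13 alternatives, no called member changed sign. Fold changes of the 104 tested members kept their side of the threshold in 1201 comparisons, 77 calls were lost, in 15 genes, and 74 were gained, in 32 genes. The choice that mattered most was scaling: with library totals in place of TMM, the median of all tested genes moved to -0.15, 31.8% of calls over all genes were higher in place of 48.9%, and 4 members were higher and 75 lower. Under that setting lower calls were 7 among complex I core subunits, 5 among assembly factors, 6 in complex III, 11 in complex IV and 12 in complex V, higher calls were 2 in complex IV and 0 in complex V, and the other pathway lists had 5 higher. Medians were then -0.32 for all members, -0.73 for mitochondrially encoded and -0.29 for nuclear ones. Lower assembly factors numbered 1 with RLE scaling and 1 with DESeq2, and lower complex III genes 5 without a filter. The TMM factors ran from 0.9426 to 0.9602 in the knockout libraries and from 1.037 to 1.066 in the wild-type libraries, without overlap. Library totals leave these factors out, which lowers fold changes of knockout over wild type. Why the TMM factors differ between the groups was not tested, nor was the cause of the other shifts.

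Leaving out 1 library gave 5 to 10 higher and 38 to 49 lower members, 9 to 10 lower mitochondrially encoded genes, 3 to 4 lower core and 7 to 13 lower and 0 to 2 higher accessory complex I genes, 0 to 2 lower and 1 to 2 higher assembly factors, 3 lower in complex II, 2 to 5 in complex III, 7 to 9 in complex IV with 2 to 4 higher, and 5 to 8 in complex V with 1 to 2 higher. The other pathway lists had 9 to 12 higher and 48 to 54 lower. Medians ran from -0.21 to -0.16 for all members, -0.68 to -0.55 for mitochondrially encoded and -0.17 to -0.12 for nuclear ones. The mitochondrial share differed by -0.53 to -0.43 percentage points. Isoform differences ran from 0.84 to 0.94 for Cox6b2, 0.60 to 0.85 for Cox7b2, 0.72 to 0.92 for Cox8c, 0.70 to 0.76 for Cyct, 0.33 to 0.53 for Slc25a31, 0.82 to 0.93 for Pdha2, 1.07 to 1.48 for Cox4i2, 1.29 to 1.48 for Ndufa4l2 and -0.65 to -0.42 for Cox7a1. With 3 against 4 libraries an exact permutation p cannot go below 0.0571, so the threshold could not be passed.

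The labels do not say that replicate numbers pair libraries, and correlations of same-numbered deviations were 0.14, 0.06, 0.09 and 0.02, not all over 0.1, so the unpaired fit was kept. As a hint from the data only, 3 of 4 knockout libraries correlated best with their own number, and knockout replicate 4 with wild-type replicate 2. With a replicate block, 9 members were higher and 55 lower, 2 of them accessory complex I genes that were higher. In paired form the differences were the same, 0.89 for Cox6b2, 0.75 for Cox7b2, 0.83 for Cox8c, 0.73 for Cyct, 0.46 for Slc25a31, 0.88 for Pdha2, 1.27 for Cox4i2, 1.37 for Ndufa4l2 and -0.48 for the mitochondrial share, at an exact permutation p of 0.125, the smallest that 4 pairs allow.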

Other observations

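Ndufb1-ps, which the rule for members left out for its name, had 6252 counts over the 8 libraries, more than many members, and a log2 fold change of 0.00 (edgeR adjusted p = 0.990).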
